A study of Mus musculus with 5 samples.

Results

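Nephronectin (Npnt) and 9 integrin subunits, the alpha chains Itga5, Itga6, Itga8, Itga10, Itga11 and Itgav and the beta chains Itgb1, Itgb5 and Itgb8, were followed through the single-cell transcriptomes of mouse growth plates. These 10 genes, of 29818 in the count tables, were chosen from earlier results of the same data, because Npnt was higher in perichondrial cells of the libraries labelled mutant. That contrast is therefore given as a description with no test, and tests are given for other cell classes. Those classes come from the same libraries as the contrast, so their tests are not independent of the choice.

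Cells were isolated from the proximal tibia and distal femur of 5 littermate C57BL/6J pups, 2 labelled WT (pups 1 and 2) and 3 labelled mutant (pups 3, 4 and 5), with 1 library per pup. Mutant pups carried Trpv4 p.R594H, an activating change in a calcium channel, as a conditional knock-in switched on by Col2a1-Cre, a recombinase driven by a cartilage collagen promoter and so active mainly in the chondrocyte lineage. The labels do not say which Cre or knock-in alleles the WT pups carried, and UMI counts per gene do not show the changed base. The sample labels give postnatal day 5 and the design text gives day 3 as the age.

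Nephronectin is a secreted protein of the extracellular matrix, known best from the developing kidney, where it binds integrin α8β1 on neighbouring cells. Integrins are paired receptors of an alpha and a beta chain that tie cells to matrix. α5β1, α8β1 and the αV integrins recognize the tripeptide RGD (arginine, glycine, aspartate), α6β1 binds laminins, and α10β1 and α11β1 bind collagens. In cartilage and its fibrous cover, the perichondrium, these receptors hold chondrocytes and fibroblasts to fibronectin and collagen.

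The RGD codons are shown because this tripeptide is what the RGD-binding integrins recognize in these ligands. Each run below reads 5′ to 3′ in the coding direction, with the RGD codons in capitals and the flanking codons in lower case, from the GENCODE transcripts on GRCm38, the assembly also called mm10 that the submitters' processing notes name. The Npnt motif is at chr3:132904665-132904673 on the minus strand, in exon 9 of 13 of transcript Npnt-201 and at codon 399 of 578. Egfl6, which encodes a relative of nephronectin, has it at chrX:166538421-166538429 on the minus strand, in exon 8 of 12 and at codon 360 of 550. The runs of Npnt and Egfl6 cross an exon junction after the motif. Fn1 (fibronectin) has the motif shown at chr1:71606746-71606754 on the minus strand, Spp1 (osteopontin) at chr5:104439481-104439489 on the plus strand and Ibsp (bone sialoprotein) at chr5:104310475-104310483 on the plus strand.
Npnt: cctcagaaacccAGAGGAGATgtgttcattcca
Egfl6: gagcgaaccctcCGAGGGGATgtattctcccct
Fn1: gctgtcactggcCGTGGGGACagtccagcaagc
Spp1: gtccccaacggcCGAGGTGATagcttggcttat
Ibsp: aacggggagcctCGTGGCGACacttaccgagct
The proteins coded by Npnt and Egfl6 shared 41.8% of 531 aligned residues. Among the alpha chains, identity was highest between Itga8 and Itgav (48.4%), Itga5 and Itgav (46.9%), Itga5 and Itga8 (46.0%), which are RGD receptors, and between the collagen receptors Itga10 and Itga11 (45.1%).

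After quality filters 82516 of 84382 cells were kept, with a median of 9261 and 8521 UMIs (unique molecular identifiers, 1 per captured transcript) per cell in the WT pups and 6657, 6000 and 7016 in the mutant pups. Of 84326 barcode numbers, 56 occurred in more than 1 pup. Xist, made from the inactive X chromosome, was detected in 89.8% of cells in pup 3 and 88.4% in pup 4 but in at most 0.174% in the other pups, and the Y-linked Ddx3y showed the converse, so that pups 3 and 4 differ in this respect from both WT pups and from pup 5. Clustering without any of the 10 genes as features gave 41 clusters, of which 38 could be named from marker genes and fell into 17 classes, blood, vessel, muscle and tendon cells among them although the cell type label was chondrocytes. Each name below means only that marker genes of that cell type were high. The prehypertrophic class includes a cluster of 474 cells led by Col10a1, a marker of hypertrophic chondrocytes, and no cluster was named hypertrophic. Levels are UMI counts of the summed cells of a class in a pup, scaled to the same total (CPM). Col2a1, which macrophages should lack, reached 10161 CPM in them, 17610 CPM in granulocytes and 40756 CPM in erythroid cells, against 99197 CPM in resting chondrocytes. Whether free RNA or doublets brought it there was not tested, and levels in blood cells are given as a background.

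Npnt was most abundant in a cluster led by Ostn, which codes for the secreted peptide osteocrin, and next in endothelial cells. The Ostn-led cluster of 4560 cells stays unnamed. It had enough markers of perichondrial and of tendon or ligament cells. Both names were withheld because an osteoblast lineage marker, Alpl, was among its leading genes and none of theirs was. For osteoblast lineage cells only 4 markers were found, too few for that name. Other leading genes of the cluster included Igfbp3, Epha3, Ccdc3, Col8a1 and Aspn. Npnt itself ranked among its 10 leading genes although it was no feature of the clustering. In this cluster Npnt stood at 162 and 250.3 CPM in the WT pups and at 384, 262 and 296 CPM in the mutant pups, with a mean of 271 ± 80.1 (SD, n = 5 pups). Endothelial cells had 126, 141, 129, 136 and 109.8 CPM in pups 1 to 5, a narrow range below the Ostn-led cluster in 5 of 5 pups. The mean over pups was 78.1 ± 33.5 CPM in osteoblast lineage cells, 70.1 ± 38.8 in an unnamed cluster led by the cell cycle gene Anln, 47.3 ± 6.68 in tendon or ligament cells and 42.9 ± 8.68 in perichondrial cells. These neighbours did not separate beyond their spread, since osteoblast lineage cells were above the Anln-led cluster in only 3 of 5 pups.

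Chondrocytes held little Npnt. The mean was 18.4 ± 5.23 CPM in articular, 14.1 ± 2.96 in resting, 12.3 ± 4.30 in Tgfbi-expressing, 7.43 ± 1.16 in proliferating and 4.42 ± 2.12 in prehypertrophic chondrocytes. Blood cells, which serve as a background, had 21.9 ± 16.5 CPM (granulocytes), 21.5 ± 12.4 (erythroid cells) and 6.56 ± 4.52 (macrophages), so the levels of chondrocytes taken as whole classes did not rise above that of the highest blood class. Only endothelial cells and the Ostn-led cluster exceeded every blood cell value in every pup. With each cell thinned to 2000 UMIs, 28.1% of the cells of the Ostn-led cluster and 19.7% of endothelial cells held an Npnt UMI, against 5.92% of perichondrial cells and 0.764% of macrophages. The Ostn-led cluster made up 5.53% of all cells and gave 39.3% of the 26308 Npnt UMIs.

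**Figure D1:**
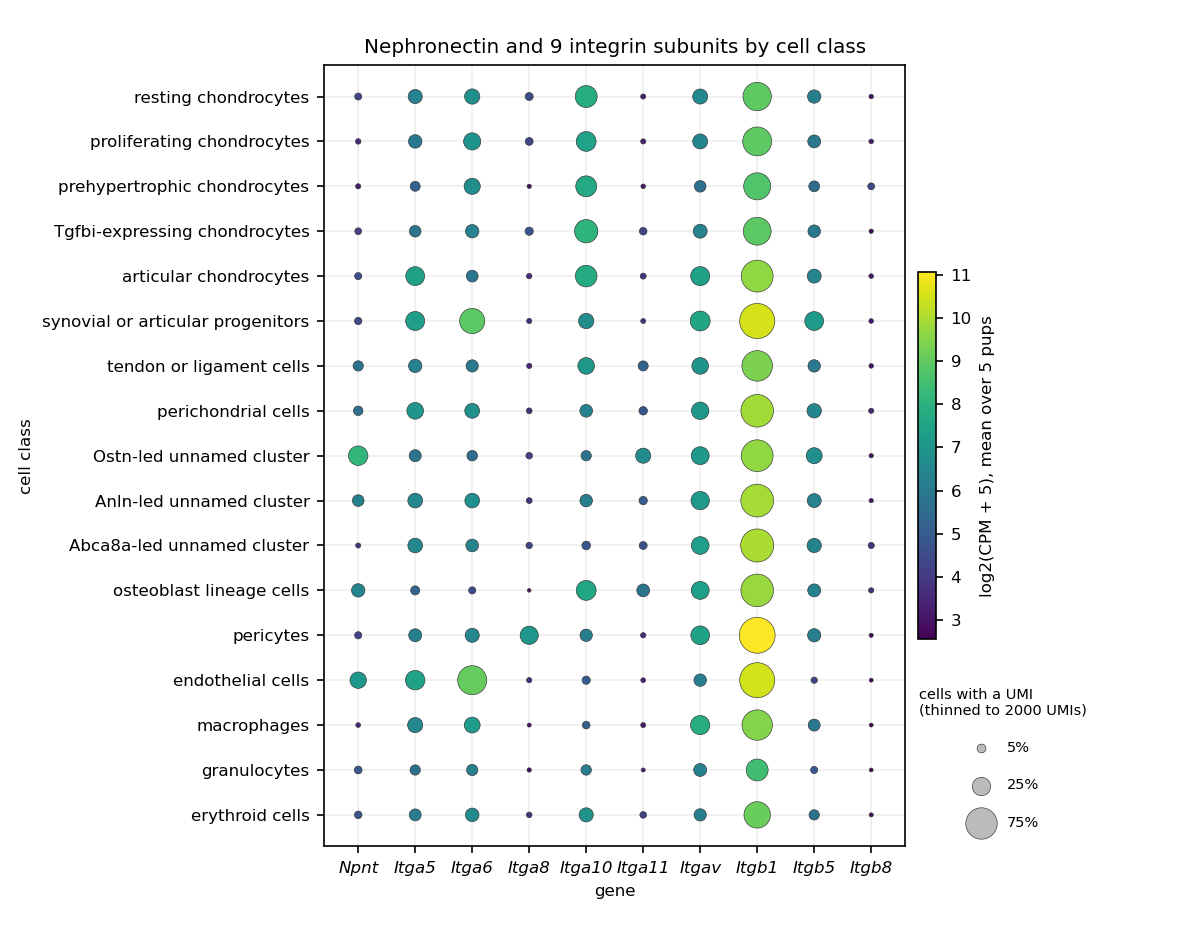
The 10 genes (columns) in the 17 classes and clusters with at least 20 cells in every pup (rows): colour is the mean level over 5 pups as log2(CPM + 5), and dot area the share of cells with a UMI after thinning to 2000 UMIs. Npnt stands out in the Ostn-led cluster (28.1% of cells) and in endothelial cells (19.7%), and Itga8 in pericytes (24.4%).

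Npnt levels also differed between the clusters of a class. A resting cluster of 3778 cells led by Notum, which codes for an inhibitor of Wnt proteins, had 63.3, 63.2, 57.3, 73.7 and 63.3 CPM in pups 1 to 5, a level that did not split by label. An articular cluster of 163 cells led by Msmp had 141 and 242 CPM in the WT pups and 96.4, 121 and 84.6 CPM in the mutant pups. The tendon or ligament cluster led by Cilp2 had 80.6 and 108 CPM in the WT pups and 98.03, 104 and 92.0 CPM in the mutant pups. These clusters were singled out after their levels were seen.

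Itga8, the alpha chain of the nephronectin receptor, followed another pattern than its ligand. Pericytes, the contractile cells of small vessels, had the highest level among the classes with at least 20 cells in every pup, at 114 and 233 CPM in the WT pups and 157, 67.5 and 38.9 CPM in the mutant pups. Their mean was 122 ± 76.5 CPM, and Itga8 was higher there than in any other of these classes in each pup. Skeletal muscle cells had 60.2 ± 9.87 CPM in the 4 pups with at least 20 such cells, and Schwann cells had 241 and 37.4 CPM in 2 pups. Among chondrocytes Itga8 reached 22.7 ± 2.37 CPM in Tgfbi-expressing, 18.8 ± 3.00 in resting and 15.2 ± 2.57 in proliferating cells, against 7.68 ± 1.75 in articular and 1.74 ± 0.432 in prehypertrophic cells. Tgfbi-expressing cells were above resting cells in 4 of 5 pups. As a background, erythroid cells had 8.56 ± 5.58 CPM, above articular chondrocytes, and macrophages 2.59 ± 1.10. Resting chondrocytes, through their number, gave 44.3% of the 9997 Itga8 UMIs and pericytes 13.5%.

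Levels of this receptor chain did not follow those of Npnt. The Ostn-led cluster had 12.7 ± 3.60 CPM of Itga8 and endothelial cells 8.35 ± 6.57. Perichondrial cells had 8.97 ± 2.11 CPM and tendon or ligament cells 6.28 ± 0.977. Across the 17 named classes, which leave out the Ostn-led cluster, Pearson's r between Npnt and Itga8 was -0.12 on log2(CPM + 5). The largest r of Npnt with any of the other 9 genes was 0.60, with Itga11. The classes share libraries, and these values carry no p.

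**Figure D2:**
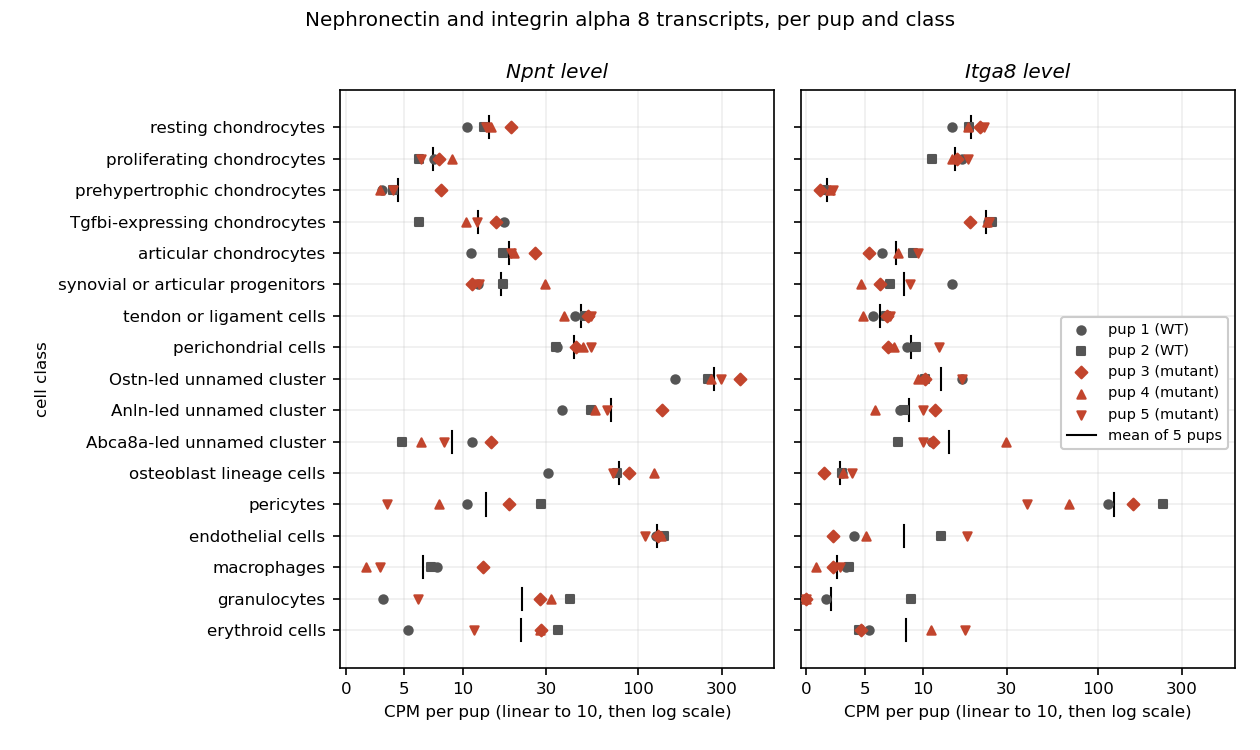
Npnt (left) and Itga8 (right) in CPM for each pup, by class, on an axis that is linear to 10 CPM and logarithmic above; vertical lines are means of 5 pups. Npnt is highest in the Ostn-led cluster (162 to 384 CPM) and Itga8 in pericytes (38.9 to 233 CPM).

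The other RGD receptor chains were spread more evenly. Itga5, which pairs with Itgb1 as the fibronectin receptor, was highest in endothelial cells (169 ± 24.3 CPM), articular chondrocytes (162 ± 19.7), synovial or articular progenitors (150.1 ± 29.3) and perichondrial cells (122 ± 13.9). The first of these exceeded the next in 3 of 5 pups, so their order is not resolved, while perichondrial cells exceeded the following cluster in 5 of 5 pups. The Ostn-led cluster had 53.0 ± 8.79 CPM and prehypertrophic chondrocytes 32.6 ± 5.39. Itgav, the chain shared by the αV receptors, was highest in macrophages among the classes with at least 20 cells in every pup, with 176 and 136 CPM in the WT pups and 237, 211 and 369 CPM in the mutant pups. In the other of these classes it ranged from 46.7 ± 6.16 CPM in prehypertrophic chondrocytes to 184 ± 12.6 in synovial or articular progenitors, and the Ostn-led cluster had 138 ± 17.1. Schwann cells had 212 and 389.5 CPM in the 2 pups with at least 20 such cells.

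Itga6, the laminin receptor chain, had its highest levels in 3 small classes, while resting chondrocytes gave 34.7% of its 71669 UMIs. Schwann cells had 808 and 932 CPM in the only 2 pups with at least 20 such cells, endothelial cells 522 ± 56.1 and synovial or articular progenitors 469 ± 137. The next class, macrophages, had 145 ± 29.9 CPM and was below the progenitors in 5 of 5 pups.

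The collagen receptor chains differed in where they were high. Itga10 was high in all chondrocyte classes, from 169.9 ± 12.6 CPM in proliferating to 260.1 ± 26.7 in Tgfbi-expressing chondrocytes, and in osteoblast lineage cells (191 ± 30.8). It was lower in perichondrial cells (72.7 ± 24.7) and in the Ostn-led cluster (49.5 ± 10.4), against 112 ± 34.3 in erythroid cells as background. Itga11 was highest in other cells, with 93.5 ± 8.51 CPM in the Ostn-led cluster, 51.4 ± 15.3 in osteoblast lineage cells, 32.2 ± 6.43 in tendon or ligament cells and 23.0 ± 3.14 in perichondrial cells. Prehypertrophic chondrocytes had 3.25 ± 0.703 CPM of Itga11 and erythroid cells 12.7 ± 4.64. The Ostn-led cluster led both Npnt and Itga11 in 5 of 5 pups.

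Among the beta chains, Itgb1, the partner of α5, α6, α8, α10 and α11, was found in every class. Its mean ran from 349 ± 75.8 CPM in granulocytes and 413 ± 15.5 in prehypertrophic chondrocytes to 2143 ± 131 in pericytes, the class that also led for Itga8. Itgb5 was highest in synovial or articular progenitors (142 ± 7.67 CPM), followed by the Ostn-led cluster (102 ± 8.64) and perichondrial cells (80.4 ± 2.68). The progenitors exceeded the Ostn-led cluster, and that cluster the perichondrial cells, in 5 of 5 pups. Itgb8 was low in most classes, with means under 10 CPM. Schwann cells had 241 and 249 CPM in the 2 pups with enough cells, skeletal muscle cells had 15.8 ± 10.6 CPM in 4 pups, and prehypertrophic chondrocytes, at 15.7 ± 1.57 CPM, gave 37.8% of all 3575 Itgb8 UMIs from 4.43% of the cells. Prehypertrophic chondrocytes were also deep, with a median of 23456 UMIs per cell against 7783 in resting chondrocytes, so their share of cells understates their share of all UMIs.

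The genes whose class pattern was most like that of a member were found over 10570 genes by Pearson's r of log2(CPM + 5), as a description only. The 17 named classes were used, without the Ostn-led and other unnamed clusters. For Npnt they were Lepr (r = 0.86), which codes for the leptin receptor, Fmnl3 (0.82), Col13a1 (0.78), Cxcl12 (0.77), which codes for a chemokine, and Spns2 (0.77). For Itga8 they included Afap1l2 (0.89), Tead1, Jam3 and Syde1 (0.86). Itga10 was closest to Fkbp14 (0.95), P3h4, Kdelr3, Srpr and Ggcx (0.93), of which Fkbp14 and P3h4 act in collagen folding. Itga11 was closest to Twist1 (0.91), Ackr4, Fkbp7, Tmem119 and Serpinf1 (0.87), and Itgb5 to Colec12 (0.90), Fn1, Ddr2, Slc41a2 and Lrp1 (0.86). Itga5 was closest to Hoxd9 (0.87), Mtmr11, Clic4, Asah2 and Elk3 (0.80), and Itga6 to Pea15a (0.89), Lrrc8c, Setd3, Mamld1 and LTO1 (0.85). Itgav was closest to Rab31 (0.86), Rassf8, Arsk, Tesk1 and Arl8a (0.80), Itgb1 to Sema4c (0.95), Septin2, Ndst1, Tax1bp3 and Rab11b (0.91), and Itgb8 to Frmd3 (0.95), Nrcam, Bche, Cnksr2 and Cyp2j6 (0.93).

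Partner genes were taken from 3 lists: 17 other integrin subunits, 23 integrin ligands and 16 adhesion adaptors. At least 20 CPM in some class was reached by 12, 21 and 15 of them. The subunits that differed most between classes were Itga7 (433 CPM in pericytes), Itgam (429 CPM in macrophages) and Itga1 (797 CPM in pericytes). The ligands that differed most were the RGD proteins Ibsp and Spp1, with 9942 and 4168 CPM in osteoblast lineage cells, and the laminin chain Lamb1, with 967 CPM in Schwann cells. The adaptors that differed most were Tns1 (369 CPM) and Fermt2 (523 CPM), both highest in synovial or articular progenitors, and Tln2 (179 CPM in skeletal muscle cells).

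The question behind the choice of these genes was how Npnt differed by genotype label in perichondrial cells. This class held 7654 cells in 3 clusters led by Dpt, Clec3b and Igfbp5. In TMM-normalized CPM, Npnt was 34.2 and 32.8 in the WT pups and 43.8, 50.9 and 54.0 in the mutant pups. Each mutant pup was above both WT pups, and the log2 difference was 0.56, but 9.8% of 13077 genes were higher in this sense in perichondrial cells, and 10.3% were lower. Of the other members, Itgb1 (log2 difference 0.13) and Itgb5 (0.06) were also higher without overlap and Itga5 (-0.19) was lower. The median over the 10 members was 0.13 and that of all genes was near 0, at -0.003. The summed level of the 14 perichondrial markers was 73775 to 95128 CPM in this class, 128659 to 168467 CPM in tendon or ligament cells and 114172 to 143248 CPM in the Ostn-led cluster, lower in perichondrial cells than in either. Most of the sum was Col1a1, the main collagen of fibrous tissue and bone, at a mean of 60393 CPM in perichondrial and 129254 CPM in tendon or ligament cells. Postn and Col3a1, which code for periostin and type III collagen, were higher in perichondrial than in tendon or ligament cells in 5 of 5 pups, with means of 2877 against 1628 CPM and 13539 against 6536 CPM. The Ostn-led cluster had lower means than perichondrial cells for Postn (2106 CPM) and Col3a1 (12491 CPM). Its means were higher for Col1a1 (105392 CPM) and for another perichondrial marker, Prrx1 (436 against 350 CPM).

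Within the perichondrial clusters, WT and mutant pups overlapped. In the Igfbp5-led cluster Npnt was at 62.01 and 127 CPM in the WT pups and at 145, 111 and 137 CPM in the mutant pups. In the Dpt-led cluster it was at 36.4 and 21.6 CPM against 35.3, 23.8 and 33.2 CPM, and in the Clec3b-led cluster at 11.2 and 28.01 CPM against 18.2, 22.8 and 17.97 CPM. The Npnt-rich Igfbp5-led cluster took 22.3% and 13.7% of the perichondrial cells of the WT pups and 17.4%, 31.1% and 30.8% of those of the mutant pups. With each cluster given the same weight in every pup, the log2 ratio of mean CPM fell from 0.51 to 0.27 and the labels overlapped, at 33.9 and 43.7 CPM in the WT pups and 51.3, 40.1 and 48.7 CPM in the mutant pups.

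The Ostn-led cluster, not counted as perichondrial above, also had more Npnt in each mutant pup. Its level, 160 and 251 in TMM-normalized CPM in the WT pups and 386, 274 and 289 in the mutant pups, did not overlap between labels and differed by 0.62 on the log2 scale, where 12.9% of 12249 genes were higher and 14.4% were lower in every mutant pup. The Xist and Ddx3y shares of pups 3 and 4 differed from those of the WT pups and those of pup 5 did not, and their part in this difference was not tested. Ostn itself was at 14.4 and 65.6 CPM in the WT pups and 383, 66.3 and 79.7 CPM in the mutant pups of this cluster, so pup 1 was lowest and pup 3 highest for both genes. Alpl, which codes for an enzyme of bone mineralization, was at 219 and 385 CPM against 349, 319 and 334 CPM. Whether a different makeup of the cluster in these pups has a part in the Npnt values was not tested. In thinned cells the share with an Npnt UMI was 17.5% and 25.9% in the WT pups and 33.7%, 26.3% and 28.3% in the mutant pups. Itgav (log2 difference 0.31), Itgb1 (0.22), Itgb5 (0.21) and Itgb8 (1.00, at only 1.84 to 4.05 normalized CPM) were higher without overlap as well, which makes 5 of the 10 members, and the median over the members was 0.21. No member was lower in this sense.

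The Ostn-led cluster was a larger part of the 4 joined clusters in mutant pups, but not of all cells. It held 27.9% and 30.4% of the cells of these 4 clusters in the WT pups and 41.9%, 40.0% and 46.5% in the mutant pups. Of all cells of a pup it made up 3.10% and 5.20% in the WT pups and 8.27%, 6.10% and 4.02% in the mutant pups, which overlapped, and pup 5 had the smallest share of perichondrial cells, 4.63% of its cells. Counted together with the perichondrial clusters, Npnt was 78.3 and 109 CPM in the WT pups and 206, 150.3 and 183 CPM in the mutant pups, and the fitted log2 difference was 1.01. At equal cluster weights the log2 ratio of mean CPM of the joined cells fell from 0.94 to 0.54, and with each cluster given the same level in every pup it was 0.40. Over all cells of a pup together Npnt overlapped, at 22.4 and 31.3 CPM in the WT pups and 57.9, 34.8 and 30.3 CPM in the mutant pups.

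**Figure D3:**
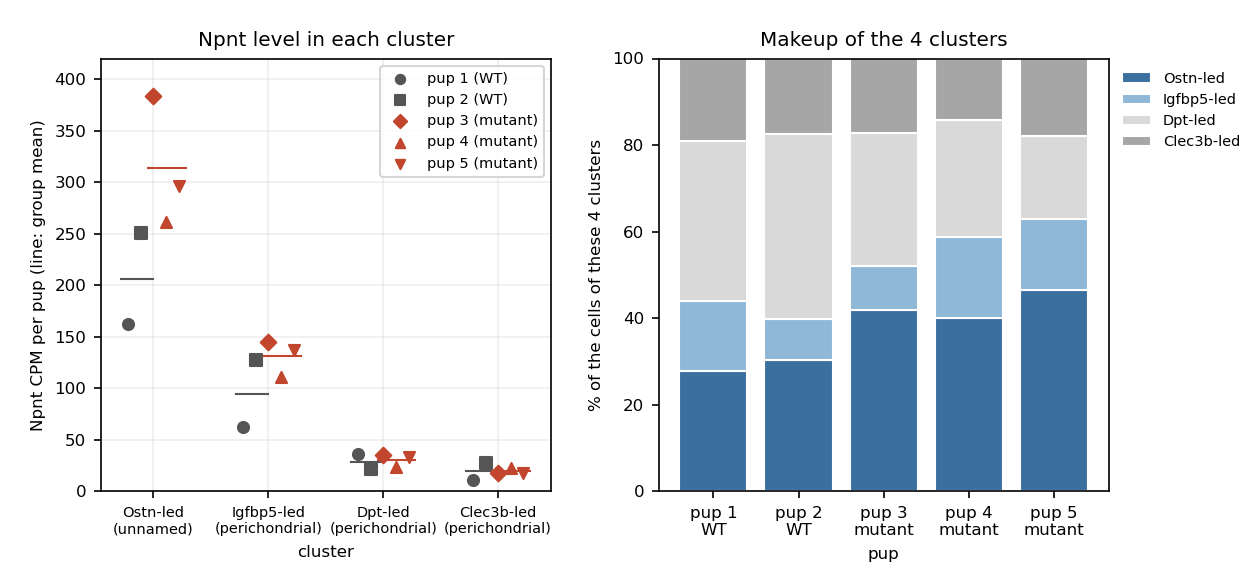
Left, Npnt in CPM for each pup in the Ostn-led cluster and the 3 perichondrial clusters, with lines for group means; right, how the cells of these 4 clusters divide in each pup, in percent. Labels overlap in the 3 perichondrial clusters and not in the Ostn-led cluster, whose share is 27.9% and 30.4% in WT and 40.0% to 46.5% in mutant pups.

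Other ways of drawing the class changed the size of the Npnt difference. At a finer clustering (Leiden resolution 2.5) the perichondrial class took in 74.1% of the Ostn-led cells, and the log2 difference was 0.99. At a coarser one (0.8) 95.9% of them stayed unnamed, and it was 0.31. Npnt then overlapped between labels, at 26.6 and 20.7 CPM in the WT pups and 26.3, 27.5 and 31.7 CPM in the mutant pups. With cells of up to 20% mitochondrial UMIs kept, the class shrank to 4476 cells and kept 57.5% of the former perichondrial cells, most of the others were placed with tendon or ligament cells, and Npnt was 19.3 and 16.2 CPM in the WT pups against 18.8, 23.6 and 10.2 CPM in the mutant pups, a fitted difference of 0.097 with overlap, while the mean CPM of the mutant pups was slightly below that of the WT pups.

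**Figure D4:**
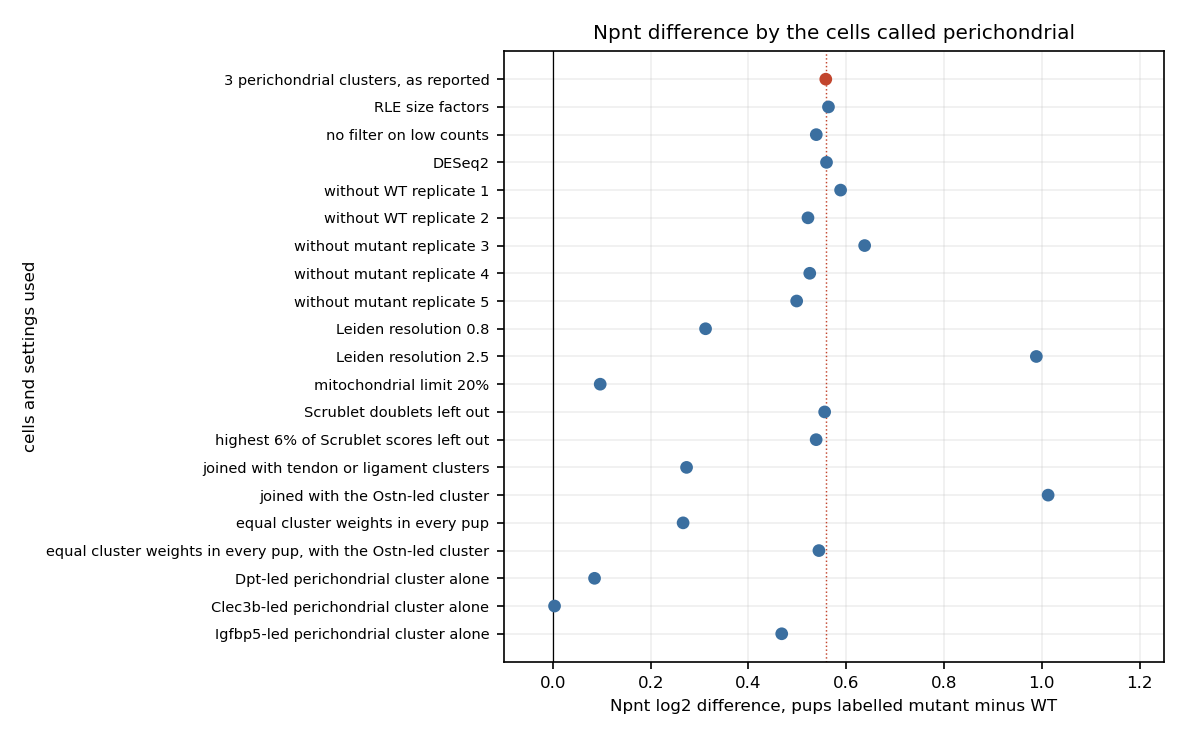
The log2 difference of Npnt between pups labelled mutant and WT (horizontal axis) for the perichondrial class as reported (red, 0.56) and under other choices of cells or settings (blue); values for single clusters and equal weights are log2 ratios of mean CPM. The plotted values run from near 0 in the Clec3b-led cluster to 1.01 with the Ostn-led cluster joined; at the 20% mitochondrial limit the fitted value is 0.097 and the mean CPM was slightly lower in the mutant pups.

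Tests were made in the 8 named classes, other than perichondrial cells, with at least 50 cells in every pup. No test is given for the unnamed clusters. Sums of UMIs per pup went into the quasi-likelihood test of edgeR, with p-values adjusted over all genes of a class by the Benjamini-Hochberg method. Of the 80 pairs of a member and a class, 7 had too few counts (Itgb8 in 3 classes and Itga8 and Itga11 in macrophages and progenitors). None of the other 73 had an adjusted p under 0.05 by edgeR, and the lowest was 0.514. DESeq2 called none either, but it gave no adjusted p for Npnt in articular chondrocytes. Calls by edgeR were rare for all genes too. They made up 0.0678% of genes in macrophages and 0% in resting, proliferating, prehypertrophic, Tgfbi-expressing and articular chondrocytes, synovial or articular progenitors and tendon or ligament cells. An unadjusted p under 0.05 was found for 11 of the 73 pairs (15.1%), 10 of them higher in the mutant pups. The share over all genes was 8.64% in resting, 8.46% in proliferating, 3.39% in prehypertrophic, 3.29% in Tgfbi-expressing and 7.32% in articular chondrocytes, 3.77% in progenitors, 4.96% in tendon or ligament cells and 6.33% in macrophages, and 50.2% of these genes were higher. Genes higher in every mutant pup than in both WT pups made up 12.5% of all genes in resting, 12.3% in proliferating, 8.16% in prehypertrophic, 8.92% in Tgfbi-expressing and 12.1% in articular chondrocytes, 10.5% in progenitors, 11.6% in tendon or ligament cells and 11% in macrophages, and genes lower in every mutant pup made up 14.2%, 13.9%, 10.5%, 9.64%, 13.5%, 10.7%, 12.1% and 11.3%. The 11 pairs share pups, and the members were chosen with results of these data known. The fit held no factor other than the label, while pups 3 and 4 differed from the other pups in Xist and Ddx3y. The part of that difference in these values was not tested.

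Resting chondrocytes held 5 of these 11 pairs. Npnt was 10.7 and 12.4 in TMM-normalized CPM in the WT pups and 18.5, 15.4 and 13.6 in the mutant pups, with a log2 difference of 0.45 ± 0.14 (SE) and an edgeR adjusted p of 0.551. Itga8 was 14.7 and 17.0 in the WT pups and 20.8, 19.2 and 22.3 in the mutant pups, with a log2 difference of 0.39 ± 0.11. Itgb8 (0.56 ± 0.16), Itga6 (0.27 ± 0.10) and Itga10 (0.23 ± 0.08) were the others. Itgb8 was at only 2.19 to 3.40 normalized CPM, with a mean of 2.66 CPM in erythroid cells as a background. The value of Itga6 was 0.14 without WT pup 1 and 0.42 without WT pup 2. With the 8 resting clusters given equal weights in every pup, the log2 ratio of mean CPM of Npnt went from 0.38 to 0.13. The labels then overlapped, at 12.2 and 14.3 CPM in the WT pups and 18.2, 12.9 and 12.6 CPM in the mutant pups. Equal weights were not applied to the other members in this class.

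Articular chondrocytes gave the largest Npnt difference of the 8 classes. Npnt was 11.5 and 15.8 in TMM-normalized CPM in the WT pups and 24.3, 20.8 and 19.5 in the mutant pups, without overlap. The log2 difference was 0.67 ± 0.17, with an unadjusted p of 0.00183 and an edgeR adjusted p of 0.64, which became 0.0167 when the filter on low counts was left out. At equal cluster weights the log2 ratio of mean CPM moved little, from 0.61 to 0.57. Most of the Npnt UMIs came from the Prg4-led cluster, where Npnt was 15.0 and 22.1 CPM in the WT pups and 40.1, 34.9 and 30.3 CPM in the mutant pups. Prg4 codes for lubricin, the lubricant of the joint surface, and this cluster was picked after its values were seen. The other articular clusters did not share the difference. In the Msmp-led cluster of 163 cells Npnt was lower in every mutant pup. It was at 141 and 242 CPM in the WT pups and at 96.4, 121 and 84.6 CPM in the mutant pups. In the clusters led by Cilp the labels overlapped. As a background, Npnt ran from 3.13 to 40.8 CPM over the pups in granulocytes, from 5.34 to 34.9 CPM in erythroid cells and from 1.72 to 13.1 CPM in macrophages, so articular chondrocytes did not exceed the first 2 of these. Itga10 was also higher in articular chondrocytes, at 188 and 192 normalized CPM against 223, 215 and 234.

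The remaining pairs were scattered over 3 classes. In Tgfbi-expressing chondrocytes Itga5 was lower in each mutant pup, at 46.6, 41.7 and 44.9 normalized CPM against 66.2 and 64.7 in the WT pups, with a log2 difference of -0.56 ± 0.13. Itga5 was negative in 7 of the 8 classes and positive in macrophages (0.14 ± 0.18). In macrophages Itgav was 175 and 137 normalized CPM in the WT pups and 237, 220.3 and 369 in the mutant pups. Its log2 difference was 0.82 ± 0.23, the largest of any member in the 8 tested classes, with an edgeR adjusted p of 0.514 that became 0.00225 without the filter on low counts. Itga6 was also higher in macrophages (0.50 ± 0.17), and Itga10 in synovial or articular progenitors (0.49 ± 0.17). In tendon or ligament cells, rich in Npnt through the Cilp2-led cluster, Npnt differed by 0.14 ± 0.13 with overlap between labels.

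**Figure D5:**
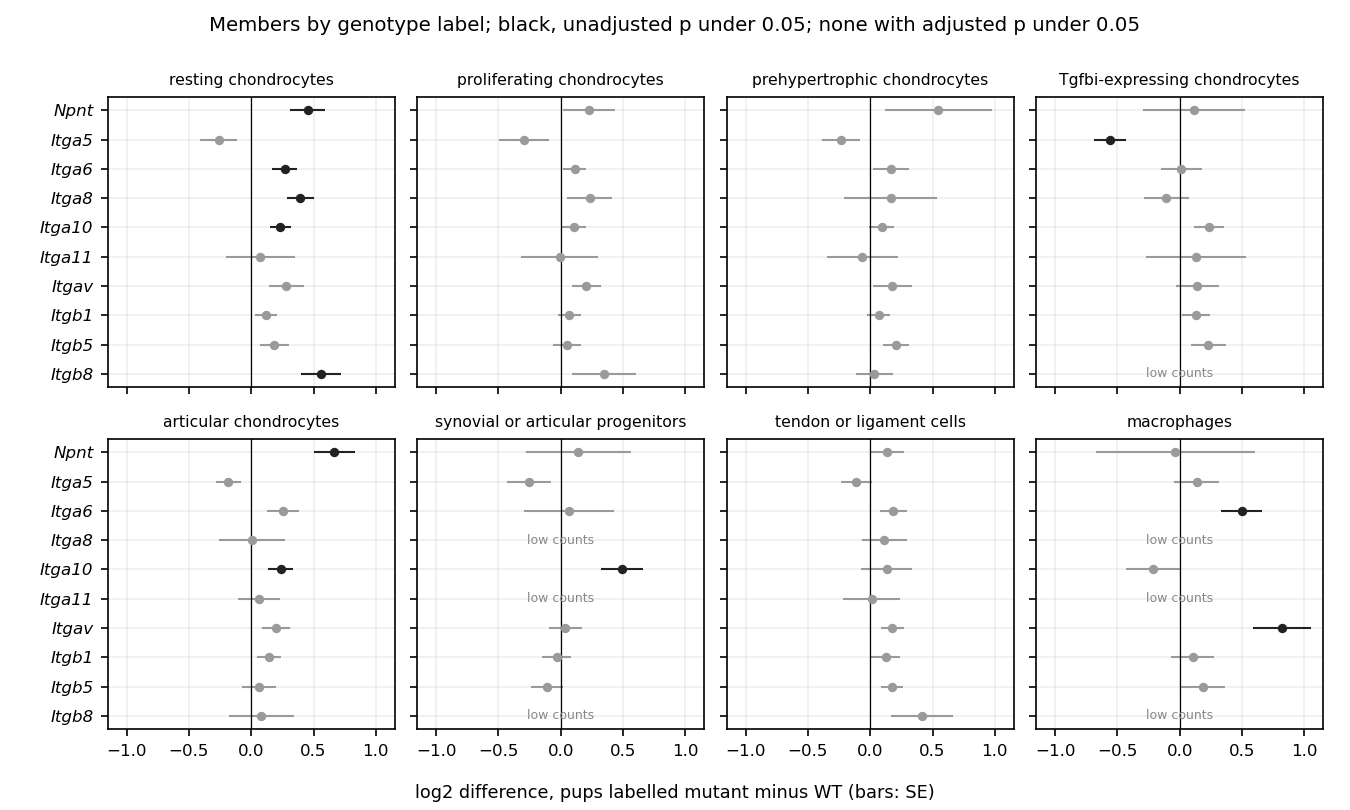
The log2 difference (pups labelled mutant minus WT) of each member in each of the 8 tested classes, with bars for the standard error; black points have an unadjusted p under 0.05 and genes with low counts were not fitted. Most points lie to the right of 0, Itga5 lies to its left in all classes but macrophages, and none passes an adjusted p of 0.05.

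Of the other genes of the pathway, edgeR called only Ccn2, in macrophages. Ccn2 codes for connective tissue growth factor, a secreted protein that binds integrins, and was 64.0 and 69.7 normalized CPM in the WT pups and 173, 169 and 186 in the mutant pups, with a log2 difference of 1.39 ± 0.16 and an edgeR adjusted p of 0.00232. Prehypertrophic chondrocytes had a mean of 1560 CPM of Ccn2, and with the 6% of cells with the highest doublet scores left out the log2 difference in macrophages was 1.31, with an edgeR adjusted p of 0.814. DESeq2 called Ccn2 in macrophages, Spp1 in resting (log2 difference 0.69) and proliferating (0.98) chondrocytes, and Fras1 (0.62) and Itga9 (0.43) in resting chondrocytes, which are named because of these values. Of all genes DESeq2 called 17 of 20300 in macrophages, 34 of 24633 in proliferating and 78 of 27698 in resting chondrocytes. Among integrin ligands, 15 of 154 pairs (9.74%) had an unadjusted p under 0.05 by edgeR, all 15 higher in the mutant pups, against 5.97% of all pairs of a gene and a class, of which 50.2% were higher. Among other subunits it was 9 of 80 (11.2%), with 4 higher, and among adaptors 5 of 119 (4.20%), with 2 higher. All these pairs share pups. Genes also recur among them, such as Ccn2 in macrophages, prehypertrophic chondrocytes and tendon or ligament cells.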

How the data were processed

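The authors captured each pup as 1 BD Rhapsody library and deposited raw UMI counts, a gene-by-cell matrix for each pup, on mm10 per the labels; the version of the vendor's pipeline and annotation are not given in the sources used here. Cells with 200 to 6000 genes and at most 10% mitochondrial UMIs were kept. Pearson residuals within pups (theta 100, 3000 features without the members, listed genes, mitochondrial and sex-linked genes), 50 components, 20 neighbours and Leiden clustering (resolution 1.5, seed 1; leidenalg 0.10.2) gave clusters, named from marker lists of 22 classes. A name needed at least 3 of its markers, and no fewer found than missing. It was withheld where more of a cluster's 10 leading genes were markers of another class than of its own. The limits for names were set after the data were seen. Doublets were kept, since Scrublet's threshold called none in 3 pups.

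UMIs summed per pup and class were tested with edgeR 4.0.16 (TMM, filterByExpr, robust quasi-likelihood fit), with DESeq2 1.42.0 as an alternative. With 2 pups against 3, an exact permutation test cannot go below 0.1, so none was used. The tests were tried on simulated counts with known changes of 1 on the log2 scale, in genes of at least 20 CPM. In these counts edgeR found fewer of the changed genes in macrophages than in resting chondrocytes or tendon or ligament cells. Smaller changes, such as those of the members in the tested classes, and less abundant genes were not tried. Depth was 117746735 to 183322632 UMIs per pup. Members, lists and markers were chosen with earlier results of these data known. Named were all members, listed genes with an adjusted p under 0.05 (at most 5 per class), the 3 genes per list that differed most between named classes among those of at least 20 CPM, and the 5 genes most like each member, of which 1 is not reported here. Alternatives were RLE size factors, DESeq2, no filter, each pup left out, other resolutions and mitochondrial limits, doublets left out and joined classes; equal cluster weights, single clusters and the highest doublet scores were added after the data were seen. A p-value sets the difference by label against the spread between littermates of the same label.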

Additional observations from a re-analysis of the deposited data

Results flagged for a closer look

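Itga10 and Itgb5 had differences of opposite sign in different classes, with no overlap between labels on either side. Itga10 was higher in every mutant pup than in both WT pups in 4 of the 8 tested classes, with a log2 difference of 0.49 ± 0.17 (SE) in synovial or articular progenitors, and lower in every mutant pup in 1, macrophages (-0.21 ± 0.22). Itgb5 was higher in this sense in 4 classes, with 0.23 in Tgfbi-expressing chondrocytes, and lower in 1, synovial or articular progenitors (-0.11 ± 0.13). Both negative values were within their SE. In macrophages Itga10 stood at only 29.3 CPM, against 219 CPM in resting chondrocytes and, as a background, 112 CPM in erythroid cells. Of all genes, 11.3% in macrophages and 10.7% in progenitors were lower without overlap. Over the 8 tested classes, 8.16% to 12.5% of all genes were higher without overlap. None of the 4 log2 differences had an edgeR adjusted p under 0.05, and the difference between classes was not tested for either gene.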

How the results depend on the processing

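No paired analysis was possible because WT pups are numbered 1 and 2 and mutant pups 3 to 5, so the groups share no number. The log2 difference of Npnt in perichondrial cells was 0.56 as reported and 0.50 to 0.64 with each pup left out. It was 0.31 at resolution 0.8, 0.99 at resolution 2.5, 0.097 at the 20% mitochondrial limit, 0.27 with tendon or ligament clusters joined and 1.01 with the Ostn-led cluster joined. As a ratio of mean CPM it was 0.27 at equal cluster weights, 0.47 in the Igfbp5-led, 0.085 in the Dpt-led and 0.0034 in the Clec3b-led cluster alone. Without the filter on low counts 1 member was called in articular chondrocytes (Npnt) and 1 in macrophages (Itgav); the cause was not tested. The other settings called no member in any class, but DESeq2 gave no adjusted p for Npnt in articular chondrocytes. Over all genes, edgeR without the filter called 71 genes in articular, 5 in resting, 155 in proliferating, 67 in prehypertrophic and 18 in Tgfbi-expressing chondrocytes, 18 in synovial or articular progenitors, 42 in tendon or ligament cells and 133 in macrophages, and DESeq2 called 15, 78, 34, 0, 1, 2, 5 and 17. No setting reversed a fitted direction for the 11 pairs of a member and a class with an edgeR unadjusted p under 0.05, or for Ccn2 in macrophages. Other genes named in the tested classes were not followed in this way. Itga8 in resting chondrocytes was 0.21 at resolution 0.8 against 0.39. Ccn2 in macrophages lost its call with Scrublet doublets left out (log2 difference 1.73, edgeR adjusted p = 0.0597) and with the highest 6% of scores left out (1.31, 0.814), against 1.39 as reported. The named class with the highest level held for all 10 members except at resolution 2.5 (8), with the highest doublet scores left out (9) and without WT pup 1 (9). At resolution 2.5 Npnt moved from endothelial to osteoblast lineage cells and Itga10 from Tgfbi-expressing to resting chondrocytes. Without the highest doublet scores Itgav moved from macrophages to synovial or articular progenitors. Without WT pup 1 Itgb8 moved from prehypertrophic chondrocytes to skeletal muscle cells. With a pseudocount of 1 CPM, 43 of the 50 most similar genes were shared. Levels under about 5 CPM rest on few UMIs in small classes.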
